A study of Mus musculus with 6 samples.

Results

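Tetraspanins are small membrane proteins that cross the membrane 4 times and are counted here at the mRNA level in mouse keratinocytes with and without the α3 integrin subunit. The members were all protein-coding genes whose GENCODE M21 symbol starts with Tspan and a digit, together with Cd9, Cd37, Cd53, Cd63, Cd81, Cd82, Cd151, Upk1a, Upk1b, Prph2 and Rom1. This gave 31 of the 49315 genes in the deposited table, and the rule used no measured value. After a filter on low counts, 23 of the 31 were among the 13704 genes tested.

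The Control group was MK-546 (MK-/-), an immortalized mouse keratinocyte line from skin that the labels describe as lacking α3 integrin. The 3A group was MK-546-ha3A (MK-/-:ha3), the same α3-null cells given human α3 integrin. Both groups grew untreated, below full confluence, on collagen-coated plastic in medium low in calcium, and the labels give neither age nor strain of the source animals. Each group had 3 libraries, written Control 1 to 3 and 3A 1 to 3, and each group was 1 line, so α3 and the descent of the line cannot be told apart. The labels do not say whether the libraries came from separate cultures, so the p-values may measure only technical spread.

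Tetraspanins gather partner proteins into membrane domains often called tetraspanin webs. CD151 binds the laminin-binding integrins α3β1 and α6β4 directly and strongly, whereas CD9 and CD81 mostly bind immunoglobulin superfamily proteins and meet integrins more loosely. In basal keratinocytes CD151 lies with these integrins at cell contacts and in hemidesmosomes. Members of the TspanC8 subgroup carry the sheddase ADAM10 to the cell surface and influence which proteins it cuts.

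The libraries held between 25634204 and 36245240 counts. Itga3, the mouse α3 gene, was not at 0 in Control: it held 1007, 1220 and 1062 counts in Control 1, 2 and 3, against 2807, 2633 and 2064 in 3A 1, 2 and 3. Counts per gene do not show whether reads fall in the deleted part, and how reads of the human transgene were counted is not known, so these values check neither the deletion nor the transgene. Control 1 stood apart from the other Control libraries: it correlated with them at r = 0.957 and 0.953 across genes (log2 CPM, counts scaled to a common library size), against 0.988 between Control 2 and Control 3. Its share of counts on mitochondrially encoded genes (the mitochondrial share) was 1.17%, near the 1.24% to 1.59% of 3A, while Control 2 and Control 3 had 4.19% and 4.73%. The part of these shares in the results was not tested beyond a fit with the share as a covariate. Only Control 1 had a share near those of 3A, so that fit sets 3A largely against this Control library. By edgeR's quasi-likelihood test 2044 genes were called in all (14.9% of those tested), with 7.52% higher and 7.39% lower in 3A, and without Control 1 the share was 52%. Of 7 basal keratinocyte markers, 6 were abundant in every library, led by Krt5 and Krt14. Krt15 and Trp63 were called lower, and Krt15 was at 3.36 to 3.96 CPM in Control and at 0.0557 to 0.344 in 3A. Krt5, Krt14, Col17a1 and Dst were lower in every 3A library but not called (edgeR adjusted p 0.0757 to 0.219). Itgb4 overlapped between groups (log2 fold change 0.28, edgeR adjusted p = 0.402). The summed level of the 7, most of it Krt5 and Krt14, was 8372 to 9979 CPM in Control against 6036 to 7812 in 3A, without overlap. Its part in the results below was not tested. In such bulk RNA, fewer cells of one kind and less RNA per cell cannot be told apart. Summed markers of fibroblasts, melanocytes, endothelial cells and urothelium each stayed at or below 3.74 CPM. The melanocyte sum did not overlap (3.25 to 3.74 CPM in Control, 1.58 to 2.13 in 3A), with Pmel called lower (log2 fold change -1.05, edgeR adjusted p = 0.0436) and Tyr and Dct at 0 throughout. The urothelial sum did not overlap either (0.317 to 0.444 CPM in Control, 0.0266 to 0.143 in 3A). It was Upk2 alone, at 8 to 13 counts in Control and 1 to 5 in 3A, because Upk3a had 0 counts throughout. Of the leukocyte markers, Cd74 was at 39.2 to 59.4 CPM in Control and, lower in every library but not called, at 32.9 to 38.9 in 3A, and Ptprc, Cd3e, Itgam and Lyz2 were at 0 to 0.103 CPM.

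Promoter windows are shown at the ends of the family's range of estimates, for the 2 largest falls and the largest rise. They run from 250 bases before to 50 after the RefSeq start (RefSeq, GRCm38.p6, 5′ to 3′ along the gene), with CpG dinucleotides in capitals. The Tspan6 window is on the minus strand at chrX:133898380-133898679, the Tspan15 window on the minus strand at chr10:62231169-62231468, and the Cd81 window on the plus strand at chr7:143052500-143052799.
Tspan6: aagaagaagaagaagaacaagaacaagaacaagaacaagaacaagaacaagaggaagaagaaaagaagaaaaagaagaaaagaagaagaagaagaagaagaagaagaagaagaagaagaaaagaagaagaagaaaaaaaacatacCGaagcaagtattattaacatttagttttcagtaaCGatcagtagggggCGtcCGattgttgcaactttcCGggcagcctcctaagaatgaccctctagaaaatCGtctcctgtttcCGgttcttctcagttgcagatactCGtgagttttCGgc
Tspan15: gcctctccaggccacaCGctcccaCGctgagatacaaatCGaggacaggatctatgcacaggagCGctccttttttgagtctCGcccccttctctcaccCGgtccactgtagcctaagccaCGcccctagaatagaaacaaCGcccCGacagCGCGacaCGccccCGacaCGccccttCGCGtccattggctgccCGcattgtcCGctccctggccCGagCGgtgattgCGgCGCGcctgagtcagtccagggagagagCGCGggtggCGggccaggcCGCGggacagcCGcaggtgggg
Cd81: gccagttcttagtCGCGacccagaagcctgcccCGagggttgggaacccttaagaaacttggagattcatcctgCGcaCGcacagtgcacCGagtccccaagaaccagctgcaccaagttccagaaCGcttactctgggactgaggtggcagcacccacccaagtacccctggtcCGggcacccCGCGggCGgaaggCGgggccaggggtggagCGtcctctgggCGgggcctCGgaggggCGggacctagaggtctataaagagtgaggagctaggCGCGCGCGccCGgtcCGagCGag

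The Tspan6 window held 9 CpG and 38.3% G+C, and its upstream part is a purine-rich run of short repeats. The Tspan15 window held 29 CpG and 66.3% G+C, and the Cd81 window 23 and 65.7%. Over all 32851 RefSeq windows of this length the medians were 7 CpG and 52.7% G+C. Of 3 motifs searched on both strands, none of which contains another, TATAAA occurred 1 time in the Cd81 window and in 13.6% of all windows. GGGCGG occurred 3 times in the Cd81 window and in 35.7% of all windows. TGANTCA occurred 1 time in the Tspan15 window and in 7.81% of all windows, and the Tspan6 window held none of the 3. These are matches of letters in reference sequence, and neither binding nor DNA methylation was measured.

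Ordered by mean level per length, the family was led by Cd9, Cd63 and Cd151 in both lines, with the place of Cd151 in Control not settled beyond the spread. Levels per length are counts divided by merged exon length and TMM-scaled library size (RPKM), the only scale on which genes are compared with each other here. Cd9 had 257 ± 91.8 RPKM in Control (SD, n = 3) and 206 ± 12.9 in 3A, and Cd63 had 207 ± 36.6 and 209 ± 17.6. The libraries of these 2 genes overlapped in both groups, so their order cannot be told. Cd151 came next, with 58.0 ± 16.5 RPKM in Control and 89.5 ± 10.4 in 3A. It lay apart from Cd63 or Cd9 above it, overlapped Upk1b and Tspan3 below it in Control, and lay apart from Tspan3 below it in 3A. Upk1b was above it in Control 1 (78.6 against 75.6 RPKM) and Tspan3 in Control 3 (48.5 against 42.8). Together Cd9, Cd63 and Cd151 made up between 60.4% (Control 1) and 75.5% (Control 3) of the family's summed RPKM in Control, and between 65.7% and 69.8% in 3A.

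Next in Control came Upk1b (50.6 ± 24.6 RPKM), Tspan3 (46.3 ± 4.59) and Tspan31 (39.2 ± 6.97), which overlapped one another. Cd81 had rank 10 in Control at 9.27 ± 2.87 RPKM and rank 7 in 3A at 31.9 ± 3.74, where it overlapped its neighbours Upk1b and Tspan4. Among 13680 tested genes with a known length, Cd9 ranked 213th and Cd63 245th by mean RPKM, whereas Cd82, Tspan6, Tspan13 and Tspan15 ranked between 10084th and 11392nd. The summed RPKM of the family was 656, 784 and 785 in Control 1, 2 and 3 against 744, 729 and 771 in 3A 1, 2 and 3, so the totals overlapped between lines.

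**Figure D1:**
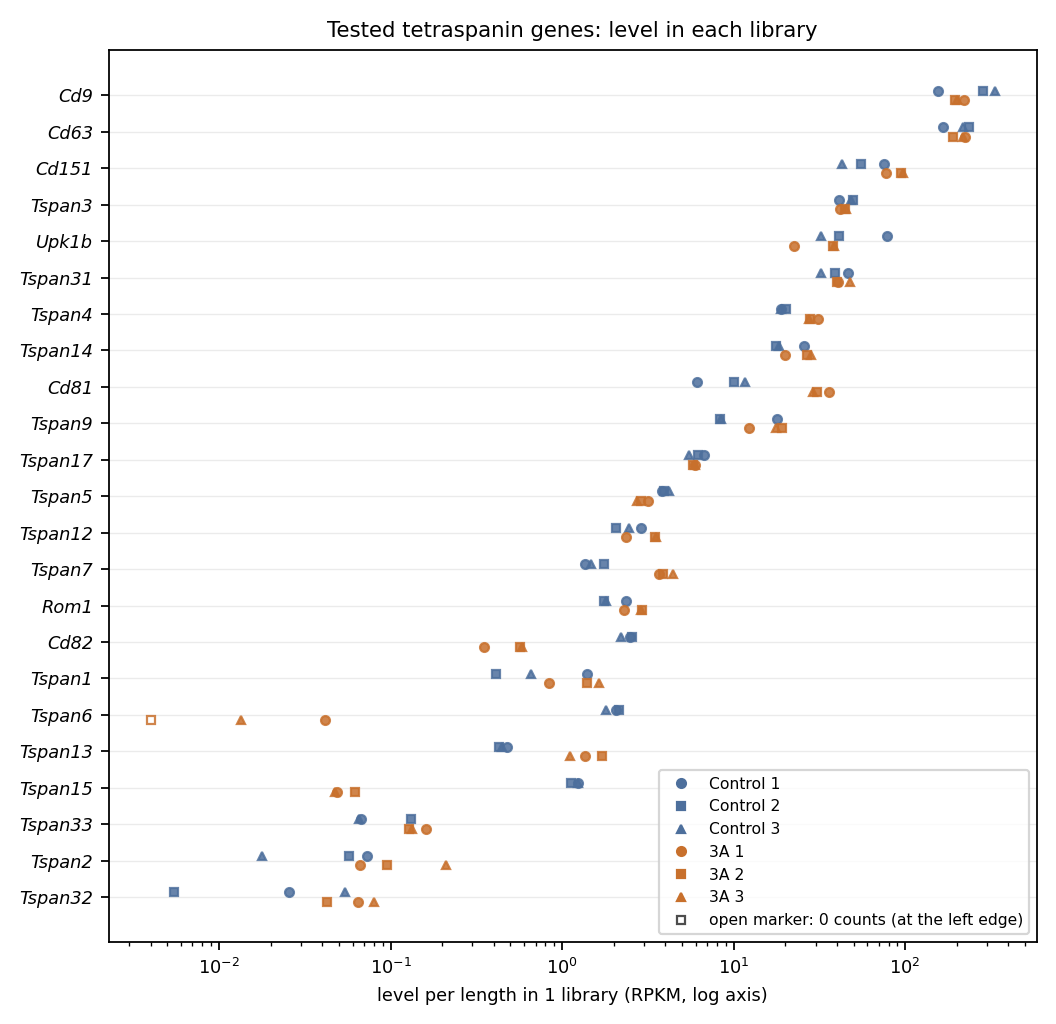
Level per length of the 23 tested tetraspanin genes in each library (RPKM, log axis; blue Control, orange 3A; 1 marker shape per replicate number, open marker for 0 counts, drawn at the left edge). Cd9 and Cd63 sit at the top in all 6 libraries, and Tspan6 and Tspan15 show the widest gaps between the lines.

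The 2 lines differed in both directions: 4 tested tetraspanin genes were higher in 3A (Cd81, Tspan13, Tspan7 and Tspan4) and 3 were lower (Tspan6, Tspan15 and Cd82). These were 7 of 23 tested members (30.4%), against 14.9% of all tested genes (edgeR quasi-likelihood test, Benjamini-Hochberg adjusted p under 0.05 over all 13704 genes). At an unadjusted edgeR p under 0.05 the counts were 5 and 4 of the 23, against 2171 higher and 2485 lower of all 13704 tested genes. The median log2 fold change of the 23 was 0.33, against -0.02 over all tested genes, and the median size of change regardless of sign was 0.62 against 0.43. Groups did not overlap for 9 members, 5 with 3A above and 4 with 3A below, against 36.1% of all tested genes (18.6% above and 17.6% below). Without Control 1 the counts were 8 higher and 5 lower, including all 7 of the first calls, where 52% of all tested genes were called. Without 3A 2, where Tspan4 and Tspan13 were lost, they were 2 and 3, and 4.72% of all tested genes were called. Leaving out any one of the other 4 libraries gave 3 and 3, with 4.77% to 9.18% of all tested genes called.

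**Figure D2:**
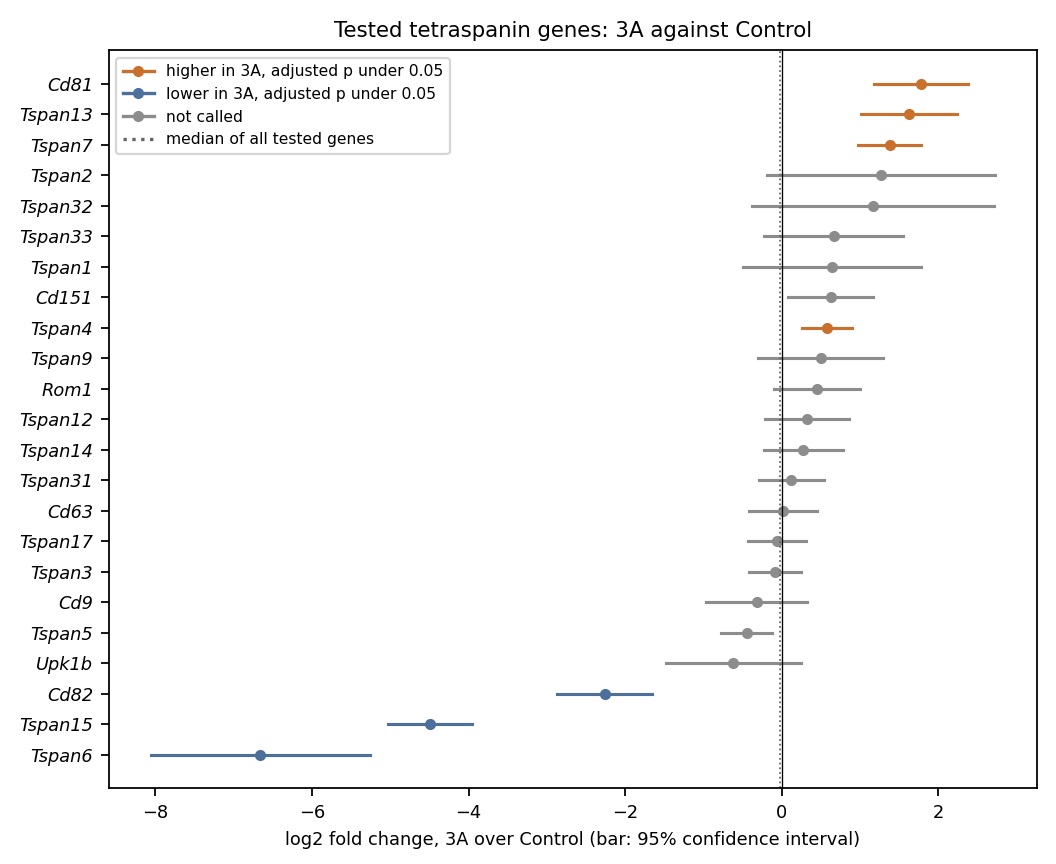
Log2 fold change of 3A over Control for the 23 tested tetraspanin genes, with 95% confidence intervals from edgeR; colour marks the 4 genes called higher and the 3 called lower. The falls of Tspan6 (-6.66) and Tspan15 (-4.50) lie far outside the range of the other members.

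Among the tetraspanins with integrin or immunoglobulin superfamily partners, Cd81, Tspan4 and Cd82 passed the test and Cd151, Cd9 and Cd63 did not. Cd151, the direct partner of α3β1 (chromosome 7, 141467392 to 141471473, plus strand), had 207, 152 and 117 CPM in Control 1, 2 and 3. Its 3A libraries had 213, 258 and 265 CPM. All 3 lay above all 3 Control libraries, but 3A 1 exceeded Control 1 by little. The log2 estimate came to 0.63 (SE 0.23, 95% confidence interval 0.09 to 1.16, edgeR adjusted p = 0.106), so the gene was not called. Without Control 1 it was 0.87 and passed (edgeR adjusted p = 0.00458), and without any other library the adjusted p was 0.122 to 0.293. With the mitochondrial share as a covariate it was 0.25 (edgeR adjusted p = 0.335).

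Cd81, a close relative of Cd9, had the largest estimated rise among the tetraspanins with all 6 libraries (chromosome 7, 143052739 to 143067934, plus strand). Control 1, 2 and 3 had 17.5, 29.0 and 33.5 CPM. The 3A libraries had 104, 88.6 and 83.0 CPM, all well above the highest Control library. Its mean was 3.44-fold higher in 3A (log2 fold change 1.78, SE 0.26, edgeR adjusted p = 0.00555). With each library left out in turn it passed every time (log2 fold change 1.56 to 1.98, edgeR adjusted p 0.000422 to 0.0279). Exons of the antisense gene R74862 share 104 bases with Cd81, but R74862 had 3 to 23 counts per library against 552 to 3622 for Cd81.

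Cd9, abundant in epithelial cells and a partner of the growth factor precursor HB-EGF, spread widely within Control: 316, 580 and 679 CPM in Control 1, 2 and 3. The 3A libraries, at 451, 401 and 411 CPM, lay inside that range. On the log2 scale its estimate was -0.32 (95% confidence interval -0.97 to 0.33, edgeR adjusted p = 0.434). Without Control 1 Cd9 was lower in 3A (-0.57 on the log2 scale) and passed (edgeR adjusted p = 0.00873), whereas with the mitochondrial share as a covariate its estimate turned positive (0.36, edgeR adjusted p = 0.0788). No test compared the change of Cd9 with that of Cd81.

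Cd63, a tetraspanin of late endosomes, lysosomes and exosomes, had 610, 870 and 801 CPM in Control 1, 2 and 3 against 817, 696 and 797 in 3A 1, 2 and 3. The groups overlapped and the log2 estimate came to 0.02 (95% confidence interval -0.42 to 0.45, edgeR adjusted p = 0.956). An interval of this width leaves room for changes of moderate size in either direction. The sign turned without Control 1 (-0.11) and without 3A 1 (-0.02).

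Cd82, also named KAI1 and known as a suppressor of metastasis that binds integrins and EGFR, fell (chromosome 2, 93419111 to 93463140, minus strand). Control 1, 2 and 3 had 7.45, 7.69 and 6.58 CPM, and 3A 1, 2 and 3 had 1.06, 1.71 and 1.75 CPM. The groups lay apart, with Control tightly grouped. The log2 estimate came to -2.26 (SE 0.26, edgeR adjusted p = 0.00236), and it passed with each library left out in turn (-2.37 to -2.05, edgeR adjusted p 0.000843 to 0.0185).

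Tspan4, known from the retraction fibres and migrasomes of moving cells (chromosome 7, 141475240 to 141493427, plus strand), had 41.2, 43.95 and 40.9 CPM in Control against 67.6, 60.7 and 59.5 in 3A. The groups did not overlap, and the spread within each was small. Its estimate of 0.58 on the log2 scale (SE 0.14, edgeR adjusted p = 0.0320) was the smallest among the called members. It passed without Control 1 (0.57, edgeR adjusted p = 0.00935) but not without Control 2, Control 3, 3A 1, 3A 2 or 3A 3 (0.53 to 0.62, edgeR adjusted p 0.0751 to 0.140), nor with no low-count filter (edgeR adjusted p = 0.0635). Tspan4 shares 292 exon bases with the opposite-strand gene Chid1, which was not called (log2 fold change 0.16, edgeR adjusted p = 0.492). Tspan4 starts 3766 bases after the end of Cd151.

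The remaining genes of this subgroup were hardly detected. Cd37 and Cd53, tetraspanins of leukocytes, had at most 16 and 2 counts in any library and were not tested. Tspan11, the gene most like Cd151, had 0 counts in Control and 4 in 3A over the group. Tspan8, common in gut epithelium and carcinomas, had 0 counts in all 6 libraries, which allows up to 0.0356 CPM for Control and 0.0277 CPM for 3A (a floor of 3 counts over each group, for counting error only).

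Of the 6 TspanC8 genes, the ADAM10 partners, 5 were tested: Tspan15 fell and Tspan14, Tspan17, Tspan5 and Tspan33 did not pass. Tspan15, which directs ADAM10 to N-cadherin (chromosome 10, 62185396 to 62231251, minus strand), had 10.1, 9.26 and 10.2 CPM in Control 1, 2 and 3. In 3A 1, 2 and 3 it had 0.401, 0.506 and 0.390 CPM, from 14, 19 and 14 counts. The 2 groups were tight and far apart. The log2 estimate came to -4.50 (SE 0.23, edgeR adjusted p = 0.000239), the smallest p among the tetraspanins, and -4.62 to -4.42 with each library left out (edgeR adjusted p 4.21e-05 to 0.00383).

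Tspan14, the most abundant TspanC8 gene, had 68.5, 46.6 and 48.7 CPM in Control 1, 2 and 3 against 52.8, 70.9 and 74.7 in 3A 1, 2 and 3, with overlap. On the log2 scale its estimate was 0.28 (95% confidence interval -0.23 to 0.78, edgeR adjusted p = 0.385). Without Control 1 it was 0.48 (edgeR adjusted p = 0.0481), and with the mitochondrial share as a covariate it was -0.03. Tspan5, with 28.4, 29.0 and 31.1 CPM in Control against 23.4, 21.4 and 20.1 in 3A, did not overlap between groups but missed the threshold (log2 fold change -0.45, SE 0.14, edgeR adjusted p = 0.0731). It passed without Control 1 (-0.46, edgeR adjusted p = 0.0228) and by DESeq2 (adjusted p = 0.04995). Tspan17 had 11.1, 10.3 and 9.13 CPM in Control against 9.83, 9.59 and 9.80 in 3A, with an estimate of -0.06 on the log2 scale (95% confidence interval -0.43 to 0.31, edgeR adjusted p = 0.801). That sign turned with scaling by library size alone (0.0028). Tspan33, known from B cells and erythroid cells, had 0.349, 0.684 and 0.340 CPM in Control against 0.831, 0.666 and 0.696 in 3A (log2 fold change 0.67, edgeR adjusted p = 0.249). Tspan10, an eye and pigment cell gene, had 1 count in all 6 libraries together and was not tested.

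Within the TspanC8 group, Tspan15 made up 3.29%, 3.90% and 4.23% of the summed RPKM in Control 1, 2 and 3 against 0.168%, 0.174% and 0.129% in 3A 1, 2 and 3. Tspan14 held 68.6%, 60.7% and 62.5% in Control against 68.1%, 75.0% and 76.2% in 3A, so its share in 3A 1 lay below that in Control 1. The summed RPKM of the group was 37.7, 29.0 and 29.4 in Control against 29.2, 35.6 and 36.997 in 3A, with overlap. Adam10 itself had 146, 92.9 and 94.0 CPM in Control against 89.7, 140 and 158 in 3A (log2 fold change 0.22, edgeR adjusted p = 0.577). Its highest Control library and lowest 3A library were the same as for Tspan14.

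**Figure D3:**
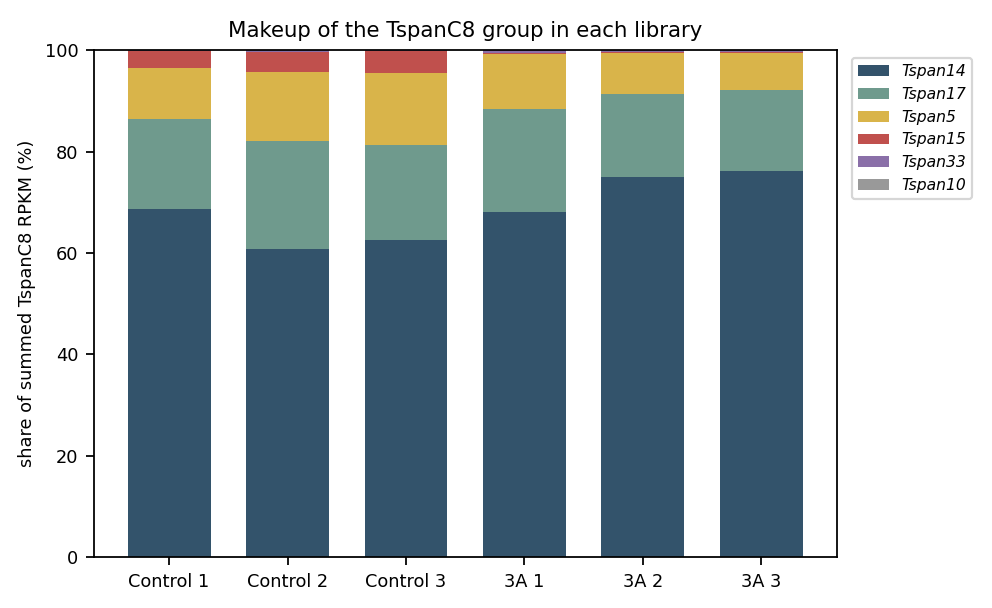
Share of each TspanC8 gene in the group's summed RPKM (%), 1 stacked bar per library. Tspan14 forms 60.7% to 76.2% of every bar, and the Tspan15 segment of 3.29% to 4.23% in Control is at most 0.174% in 3A.

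Among the other Tspan genes, Tspan7 and Tspan13 rose and Tspan6 fell. Tspan6, a relative of Tspan7 on the X chromosome reported to act on exosome formation and innate signalling (133891068 to 133898429, minus strand), had 134, 130 and 88 counts in Control 1, 2 and 3. It had 3, 0 and 1 counts in 3A 1, 2 and 3. In CPM these were 4.25, 4.44 and 3.74 against 0.0860, 0 and 0.0278. The pooled rate in Control was 113 times that in 3A, with a 95% exact interval of 43.7 to 417 that covers counting error only. The fitted estimate on the log2 scale came to -6.66 (SE 0.60, edgeR adjusted p = 0.000950), a size that depends on the prior count at so few reads. It passed with each library left out (edgeR adjusted p 0.000208 to 0.0129).

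Tspan7, the closest paralog of Tspan6, also X-linked and known from neurons (10485158 to 10596605, plus strand), went the other way. It had 9.57, 12.5 and 10.4 CPM in Control 1, 2 and 3 against 25.8, 27.2 and 31.4 in 3A 1, 2 and 3. Every 3A library was above every Control library. On the log2 scale its estimate was 1.38 (SE 0.17, edgeR adjusted p = 0.00324), and it passed with each library left out (1.31 to 1.49, edgeR adjusted p 0.000976 to 0.0226). In RPKM, Tspan6 went from 2.01 ± 0.177 to 0.0184 ± 0.0213 and Tspan7 from 1.53 ± 0.212 to 3.98 ± 0.410 (SD, n = 3).

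Tspan13 (chromosome 12, 36014557 to 36042500, minus strand), an atypical member reported to modulate calcium channels, had 1.17, 1.06 and 1.10 CPM in Control against 3.38, 4.21 and 2.76 in 3A. The groups lay apart at this low level. On the log2 scale its estimate was 1.63 (SE 0.26, edgeR adjusted p = 0.00827), and it was lost without 3A 2 (1.47, edgeR adjusted p = 0.0587).

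Tspan3, Tspan31, Tspan9, Tspan12, Tspan1, Tspan2 and Tspan32 were tested and not called. Tspan3, broadly expressed, had 175, 211 and 207 CPM in Control against 178, 189 and 193 in 3A, with one of the narrowest intervals of the family (-0.09 on the log2 scale, 95% confidence interval -0.42 to 0.25). Tspan31 had 71.1 to 102 CPM in Control against 88.3 to 104 in 3A (log2 fold change 0.12). It shares 641 exon bases with Cdk4 on the opposite strand, which held 68043 counts in all against 17515 for Tspan31, so its counts are uncertain (Cdk4 log2 fold change -0.29, edgeR adjusted p = 0.336). Tspan9, which neighbours Tspan11 on chromosome 6, had 89.1, 41.1 and 42.1 CPM in Control against 61.0, 95.3 and 87.4 in 3A. With Control 1 as high as the 3A libraries its log2 fold change was 0.50 (edgeR adjusted p = 0.324), and without that library 0.98 (edgeR adjusted p = 0.00584). Tspan1 had 3.27, 0.957 and 1.53 CPM in Control against 1.95, 3.25 and 3.84 in 3A, and passed only without Control 1 (1.30, edgeR adjusted p = 0.0230). With the mitochondrial share as a covariate the estimates of Tspan1, Tspan3, Tspan9 and Tspan31 changed sign (-0.02, 0.06, -0.08 and -0.11), none of them called.

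Tspan12, which joins the Norrin receptor Frizzled 4, had 6.87 to 9.61 CPM in Control against 7.79 to 11.6 in 3A (log2 fold change 0.33, edgeR adjusted p = 0.331). Tspan2 and Tspan32 stayed at or below 1.00 CPM, with log2 fold changes of 1.27 and 1.17 and intervals reaching below 0. Tspan32 lies 33094 bases before Cd81 on chromosome 7, and Tspan18 lies 84605 bases from Cd82 on chromosome 2. Tspan18 had 2 counts in Control and 1 in 3A and was not tested.

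Upk1b, a uroplakin that forms the plaques of bladder epithelium together with Upk1a, Upk2 and Upk3a, had rank 4 among the tetraspanins in Control by RPKM. It had 164, 85.4 and 67.4 CPM in Control 1, 2 and 3 against 47.1, 78.7 and 80.6 in 3A 1, 2 and 3, with overlap. On the log2 scale its estimate was -0.62 (95% confidence interval -1.48 to 0.24, edgeR adjusted p = 0.265). Without Control 1 it was -0.14 (edgeR adjusted p = 0.644), and with the mitochondrial share as a covariate it was -1.24 and passed (edgeR adjusted p = 0.00988). The covariate fit sets 3A largely against Control 1, where Upk1b was highest. The plaque partners were nearly absent: Upk1a had 4 to 7 counts per library in Control against 9 to 20 in 3A and was not tested, and Upk3a had 0 counts in all 6. The related Upk3b, also not tested, had 0 to 2 counts in Control against 7 to 14 in 3A, whereas Upk2 fell. Of the disc rim genes, which shape photoreceptor outer segments, Prph2 had at most 1 count in a library and Rom1 had 2.67 to 3.58 CPM in Control against 3.47 to 4.42 in 3A (log2 fold change 0.45, edgeR adjusted p = 0.210).

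**Figure D4:**
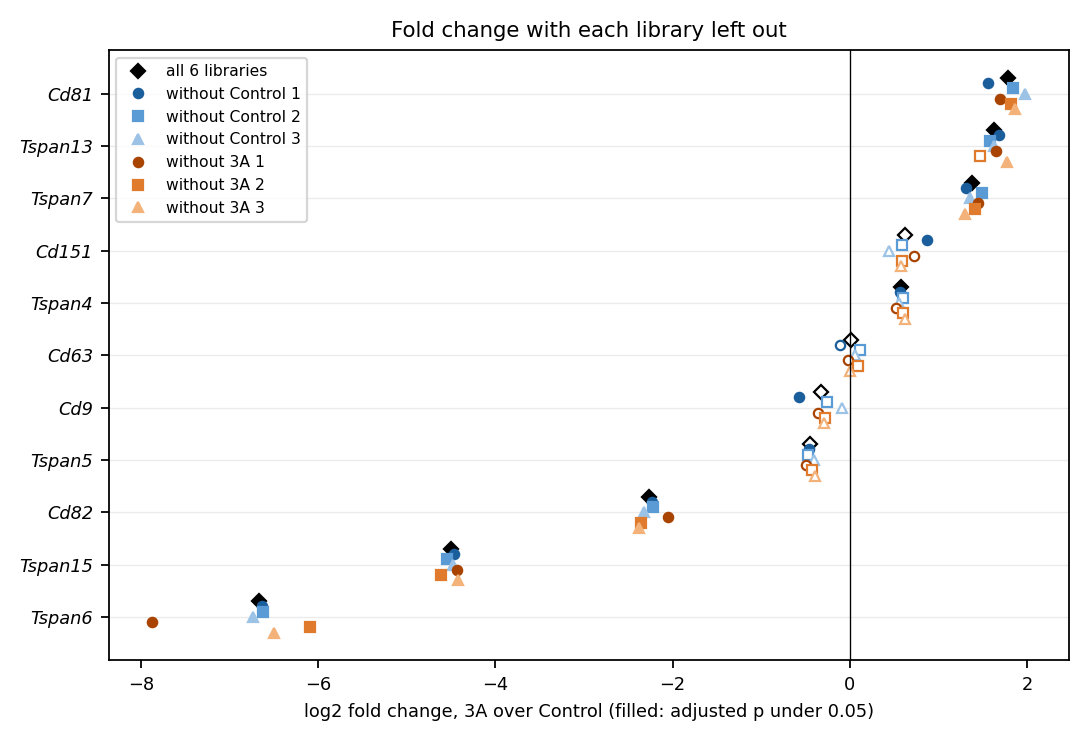
Log2 fold change of 3A over Control for the 7 called tetraspanin genes and for Cd151, Cd9, Cd63 and Tspan5, with all 6 libraries and with each library left out (filled markers, edgeR adjusted p under 0.05). Tspan6, Tspan15, Cd82, Tspan7 and Cd81 are filled throughout, while Cd151, Cd9 and Tspan5 are filled only without Control 1.

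The genes that tetraspanins work with were described by a list of 29 partners, of which 27 were tested. At the same threshold 3 rose (Itga3, Sdcbp and Sdc4) and 3 fell (Igsf3, Pi4k2a and Upk2), 22.2% of those tested against 14.9% of all tested genes. The share includes Itga3, the gene in which the lines were made to differ, so that call is no separate result about the partners. Groups did not overlap for 6 above and 6 below, against 36.1% of all tested genes. The median log2 fold change was 0.22, against -0.02 over all tested genes. Without Control 1 the counts were 12 higher and 6 lower, where 52% of all tested genes were called. Without Control 2, Control 3, 3A 2 or 3A 3 none passed in either direction, with 5.99%, 6.98%, 4.72% and 4.77% of all tested genes called. Without 3A 1 none was higher and 2 were lower, with 9.18% of all tested genes called.

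Of the 5 chains of laminin-binding integrins, Itga3 passed (log2 fold change 0.81, edgeR adjusted p = 0.0362), with 31.9, 41.7 and 45.1 CPM in Control against 80.4, 70.2 and 57.5 in 3A. Like its counts, this level checks neither the deletion nor the transgene. Itga6 had 319, 219 and 212 CPM in Control against 192, 320 and 347 in 3A, and Itgb4 393, 273 and 245 and 306, 412 and 386. Both overlapped between groups (log2 fold changes 0.20 and 0.28, edgeR adjusted p = 0.622 and 0.402). Itgb1, at 587, 472 and 440 CPM in Control against 530, 676 and 790 in 3A, also overlapped (log2 fold change 0.41, edgeR adjusted p = 0.196). The muscle chain Itga7 was low, at 0.856, 0.342 and 0.425 CPM in Control against 0.659, 0.879 and 1.03 in 3A (0.65, edgeR adjusted p = 0.308). Without Control 1, where 52% of all tested genes were called, Itgb4, Itgb1 and Itga7 passed (0.52, 0.56 and 1.17, edgeR adjusted p = 0.0286, 0.0323 and 0.0400). Of the fits with all 6 libraries or with 1 left out, Itga3 passed only in the first and without Control 1 (edgeR adjusted p = 0.0114). Like Cd151, all of these chains but Itga3 were higher in Control 1 than in the other Control libraries. This was not particular to them: Adam10, Tspan9, Tspan14 and Upk1b were also highest there among Control libraries, and Cd9 and Cd63 lowest.

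Of the immunoglobulin superfamily partners, Igsf3 fell, with 23.9, 23.4 and 26.8 CPM in Control against 10.1, 16.3 and 14.5 in 3A (log2 fold change -0.86, edgeR adjusted p = 0.0351). With any one library but Control 1 left out it was lost (edgeR adjusted p 0.0608 to 0.119). Igsf8, the EWI-2 partner of CD9 and CD81, did not overlap between groups at 29.7, 34.4 and 29.9 CPM in Control against 24.2, 22.9 and 22.4 in 3A. It missed the threshold (log2 fold change -0.43, edgeR adjusted p = 0.0793) but passed without Control 1 (edgeR adjusted p = 0.0220). Ptgfrn, the CD9P-1 partner, had 145 to 245 CPM in Control against 142 to 240 in 3A (log2 fold change 0.15, edgeR adjusted p = 0.721).

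Among trafficking partners, Sdcbp encodes syntenin, which binds CD63 and syndecans and acts in exosome formation. It rose from 247, 244 and 240 CPM in Control to 365, 344 and 367 in 3A (log2 fold change 0.56, edgeR adjusted p = 0.0314). Its syndecan ligand Sdc4 rose from 138, 146 and 139 to 191, 201 and 211 CPM (0.51, edgeR adjusted p = 0.0410), while Cd63 overlapped between groups. Pi4k2a, a phosphatidylinositol 4-kinase found in complexes with CD151 and CD81, fell from 119, 118 and 115 to 82.6, 72.3 and 71.4 CPM (-0.63, edgeR adjusted p = 0.0227). These groups lay apart by more than the spread within them, yet all 3 calls were lost without Control 2, Control 3, 3A 2 or 3A 3 (edgeR adjusted p 0.0751 to 0.181). Their sizes moved little with each library left out: 0.54 to 0.59 for Sdcbp, 0.49 to 0.56 for Sdc4 and -0.69 to -0.59 for Pi4k2a on the log2 scale. Without 3A 1, Pi4k2a was kept (edgeR adjusted p = 0.0431) and Sdcbp and Sdc4 were lost (edgeR adjusted p = 0.0713 and 0.0672). Upk2 fell from 10, 13 and 8 counts to 5, 1 and 2 (edgeR adjusted p = 0.0428), and it was likewise kept without Control 1 and without 3A 1 alone.

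Other partners did not pass. Hbegf, the CD9-bound growth factor gene, had 13.8, 17.7 and 15.9 CPM in Control against 23.3, 22.7 and 23.1 in 3A, without overlap (log2 fold change 0.54, edgeR adjusted p = 0.0551). Egfr, encoding the receptor that CD82 binds, had 51.7, 53.5 and 51.0 CPM in Control against 31.2, 35.9 and 41.3 in 3A (-0.53, edgeR adjusted p = 0.0617). Zdhhc2, a palmitoyltransferase for CD9 and CD151, had 2.44, 2.12 and 1.27 CPM in Control against 3.27, 3.36 and 4.73 in 3A (0.95, edgeR adjusted p = 0.0832). It shares 247 exon bases with Cnot7 on the opposite strand, which had 18794 counts in all against 579. Epcam, a partner of CD9 and Tspan8 in epithelia, spread as Cd9 did, with 220, 371 and 397 CPM in Control 1, 2 and 3 against 260 to 296 in 3A. Without Control 1, where 52% of all tested genes were called, Hbegf, Egfr, Zdhhc2 and Epcam each passed (edgeR adjusted p = 0.0219, 0.0228, 0.0178 and 0.0179). Fzd4, Lrp5, Mmp14 and Timp1 were among the partners that did not pass there.

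**Figure D5:**
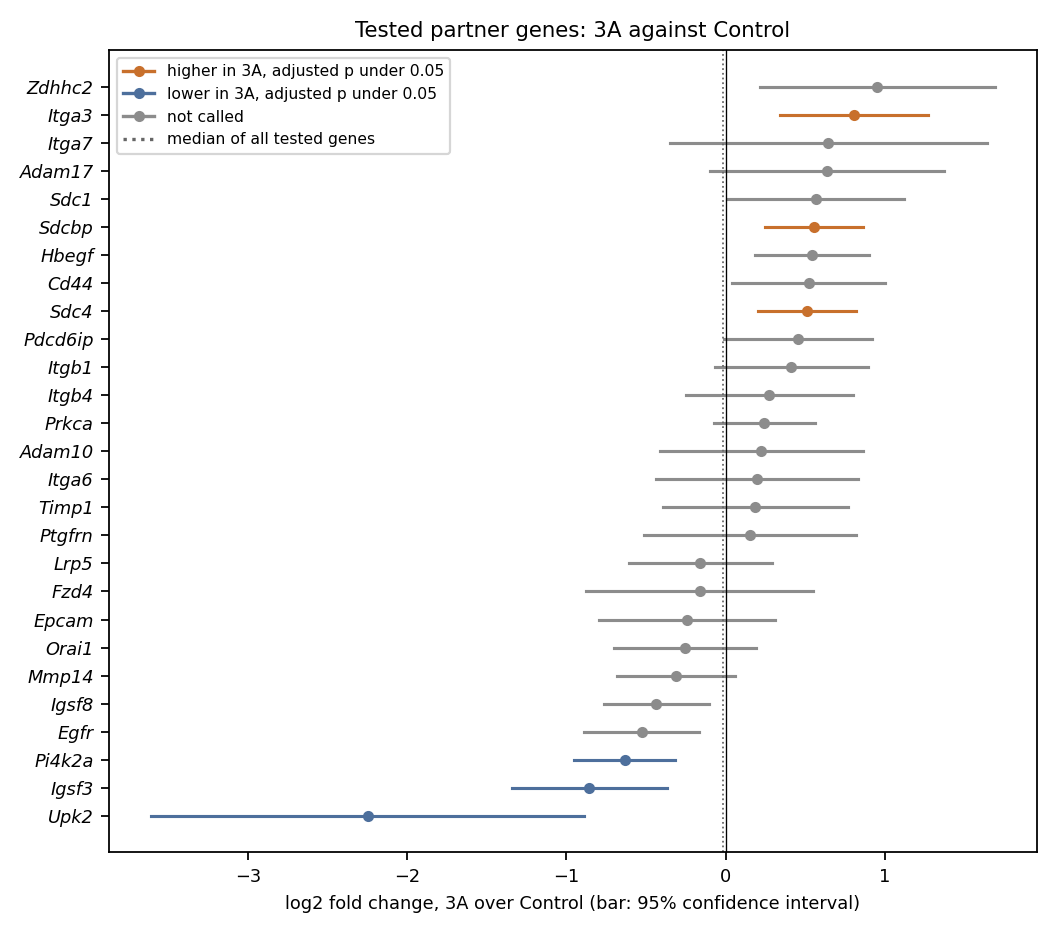
Log2 fold change of 3A over Control for the 27 tested partner genes, with 95% confidence intervals from edgeR; colour marks the 3 called higher and the 3 called lower. The intervals of 7 genes lie wholly above 0 and those of 5 wholly below, the 6 called genes among them. Such an interval corresponds to an unadjusted edgeR p under 0.05. Of all 13704 tested genes, 2171 were higher and 2485 lower at that threshold.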

How the data were processed

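RNA-seq was made from 6 libraries, 3 per line. The deposited table holds raw read counts for 49315 mouse gene IDs. Builds GRCh38, hg38 and mm10 and the tools featureCounts, Trim Galore, limma and edgeR are named, with no roles, per the submitters' processing notes. Neither labels nor headers give the aligner, annotation or strandedness, and reads shared by overlapping genes may be divided in unknown ways. Symbols, positions and exon lengths were taken from GENCODE M21 on GRCm38 (mm10), and 49056 IDs matched. Unmatched IDs stayed in and held at most 0.0123% of a library.

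The main test was edgeR 4.0.16 in R 4.3.3 (filterByExpr, TMM, estimateDisp, glmQLFit, glmQLFTest, group as the only term), fitted on all genes, with Benjamini-Hochberg adjustment over 13704 genes and a threshold of 0.05. Standard errors came from the log2 fold change and F statistic. CPM and RPKM used TMM-scaled library sizes and merged exon length; correlations used log2 CPM with a prior count of 1. No library pair agreed within sampling noise (lowest chi-square per degree of freedom 15.7). The script was tested on simulated data. Alternatives were other scalings and filters, robust fitting, limma-voom (limma 3.58.1), DESeq2 1.42.0, a replicate block, the mitochondrial share as a covariate, a threshold of 0.01 and each library left out.

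The members, lists, tests and alternatives were chosen with earlier results of these data known. All members may be named; values per library are given for called members, Cd151, Cd9, Cd81, Cd82, Cd63, the TspanC8 genes, called partners and the laminin-binding integrin chains, and, chosen after their values were seen, for Tspan1, Tspan3, Tspan9, Upk1b, Adam10 and some uncalled partners. Promoter windows came from RefSeq (GRCm38.p6, matched for 29 members). Itgb4 and Upk2 stand in both the marker and the partner lists.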

Additional observations from a re-analysis of the deposited data

How the results depend on the processing

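Under the other scalings, filters, tests and covariate, the counts of tetraspanin genes stayed within 1.5 times of 4 higher and 3 lower. Between 8.17% and 19.4% of all tested genes were called there. The exception was the replicate number as a block, where 0 were higher and 3 lower (edgeR adjusted p = 0.217 for Tspan4, 0.0973 for Tspan13, 0.0673 for Cd81 and 0.0575 for Tspan7). The labels do not say whether the numbers pair the samples. Deviations from the group mean correlated at -0.66, -0.42 and -0.37 between libraries of the same number. Such deviations sum to 0 within each group, so these values cannot exclude a shared day or batch. Under the block, which also leaves fewer degrees of freedom, 2.1% of all tested genes were called. With each library left out, 2 to 8 tetraspanins were higher and 3 to 5 lower, and 0 to 12 partners were higher and 0 to 6 lower. In these fits 4.72% to 52% of all tested genes were called.

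Partner counts, 3 higher and 3 lower, moved more. They were 1 higher and 1 lower with no low-count filter (8.17% of all tested genes called) and 0 and 0 with the replicate block (2.1%). At an adjusted p under 0.01 they were 0 and 0, and the share over all tested genes was not counted. With the mitochondrial share as a covariate 5 were higher (18.3% of all tested genes called), and by DESeq2 5 were higher (19.4%). With library size alone 1 was lower (13%), against 14.9% of all tested genes in the main test. The causes were not tested.

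Signs turned for uncalled genes. The fit with the mitochondrial share sets 3A largely against Control 1, the only Control library with a share near those of 3A. With the mitochondrial share as a covariate the log2 fold changes were 0.36 for Cd9, -0.023 for Tspan1, -0.031 for Tspan14, 0.061 for Tspan3, -0.11 for Tspan31, -0.083 for Tspan9, 0.29 for Epcam, -0.28 for Ptgfrn, -0.16 for Itga6, -0.083 for Itgb4 and -0.16 for Adam10. With each library left out, Cd63 ranged from -0.11 to 0.12 (-0.11 without Control 1, -0.018 without 3A 1), Tspan17 from -0.13 to 0.015, Lrp5 from -0.28 to 0.034 and Timp1 from -0.035 to 0.32, the last 3 turning without Control 1. Under the other settings these 4 kept their sign, except that with library size alone Tspan17 was at 0.0028. The cause was not tested in any of these. Library size alone moved the median of all tested genes from -0.02 to 0.05. Low counts left wide intervals: those of Tspan2 and Tspan32, at most 1.00 CPM, ran from -0.18 to 2.72 and from -0.37 to 2.72.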
